A study of Mus musculus with 4 samples.

Results

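The genes described here are 10 genes of fetal myeloid cells and macrophages, out of 18193 genes that the arrays measure. They were taken by symbol, with every array feature that the platform annotation gives to exactly 1 of them, which came to 14 probe sets of 34945 with 1 gene symbol. *S100a8* was picked for its higher signal in *Hand2* mutant heads at E12.5, so its difference there is given as a description, with no test. The other 9 were listed for their roles, and the question was whether genes of granulocytes or macrophages moved together with *S100a8* when *Hand2* was overexpressed in the neural crest.

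Expression was measured on 4 Affymetrix 3' arrays, 1 per group. The groups were *Hand2NC* embryos (*Hand2 CAT/+; Wnt1-Cre*) and wild-type (WT) embryos at E11.5, labelled whole-body, and *Hand2NC* and WT heads at E12.5, all on a mixed C57BL/6J x ICR background. In *Hand2NC* mice, a transgene expresses *Hand2* after Cre recombination, and *Wnt1-Cre* drives that recombination in neural crest cells and their descendants, a lineage apart from blood. RNA of several embryos was pooled for each array, so genotypes cannot be compared against spread between replicates, and precision is limited by the count of arrays. Values are MAS5 signals in linear units, scaled here to the same trimmed mean of 500 on every array. In bulk tissue, fewer cells of a type and less RNA per cell cannot be told apart.

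Neutrophils and their precursors store antimicrobial proteins in granules and carry abundant S100a8 and S100a9 in the cytoplasm, where the pair forms calprotectin. In the mouse embryo, blood cells come first from the yolk sac and then from the fetal liver, which makes red cells, granulocyte precursors, megakaryocytes and monocytes. Yolk sac macrophages, by contrast, settle in nearly every tissue early, and those of the brain become microglia, which depend on the receptor Csf1r. The transcription factor PU.1, encoded by *Spi1*, works in both branches and binds sites with a purine-rich core.

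The 3 genes of this set that were lowest in heads relative to whole bodies were *S100a8*, *S100a9* and *Mpo*, and their promoters are shown for that reason. Each run below is the 250 bases before the start of the gene in RefSeq (build GRCm38.p6), written 5′ to 3′ along the gene. Capitals mark the letters AGGAAGT or, on the opposite strand, ACTTCCT, which hold the core of a PU.1-type site. The *S100a8* promoter lies at chr3:90668821-90669070 on the plus strand, the *S100a9* promoter at chr3:90695722-90695971 on the minus strand and the *Mpo* promoter at chr11:87793534-87793783 on the plus strand.
S100a8: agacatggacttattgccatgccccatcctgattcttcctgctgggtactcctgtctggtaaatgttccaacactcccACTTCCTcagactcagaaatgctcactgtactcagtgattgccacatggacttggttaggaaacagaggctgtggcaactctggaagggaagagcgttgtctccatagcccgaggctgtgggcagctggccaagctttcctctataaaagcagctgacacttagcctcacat
S100a9: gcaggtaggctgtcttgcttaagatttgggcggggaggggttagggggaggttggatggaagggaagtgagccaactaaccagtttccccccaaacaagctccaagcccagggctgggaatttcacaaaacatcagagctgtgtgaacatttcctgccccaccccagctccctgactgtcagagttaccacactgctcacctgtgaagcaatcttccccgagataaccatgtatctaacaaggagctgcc
Mpo: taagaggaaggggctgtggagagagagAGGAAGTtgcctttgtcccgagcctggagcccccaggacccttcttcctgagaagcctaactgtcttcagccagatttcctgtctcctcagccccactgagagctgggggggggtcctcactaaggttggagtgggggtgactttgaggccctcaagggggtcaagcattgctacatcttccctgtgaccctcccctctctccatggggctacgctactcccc
The *S100a8* promoter had 1 match, on the opposite strand and 172 bases before the start, *Mpo* had 1 match 223 bases before the start, and *S100a9* had none. Of the 7 genes of this set whose promoters were searched, 5 held a match (*S100a8*, *Mpo*, *Elane*, *Lyz2* and *Ptprc*), and *Cx3cr1* had none in this window. *Csf1r*, *Spi1* and *Tyrobp* were not among the 7. Counted by promoter, 6 of 8 in this set held a match. Over all promoters of the same length, 2525 of 32851 (7.69%) held one. The letters were chosen after the promoters had been read, so these shares are no test, and a match is a description of the sequence only.

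At E11.5, none of the 10 genes differed 2-fold between *Hand2NC* and WT embryos. Of the 10, 8 passed the filter on dim signals, which asks that the brighter array of a comparison lie at or above its own median (97.2 to 106 over the 4 arrays). *Elane* and *Spi1* did not pass. Among all genes that passed, 0.177% reached a 2-fold higher signal in *Hand2NC* embryos and 0.269% a 2-fold lower one. The median log2 ratio of *Hand2NC* over WT was -0.04 over the 8 genes and -0.01 over all genes.

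The 2 calgranulins were close between genotypes at this stage. *S100a8* had a signal of 914 in *Hand2NC* and 1007 in WT embryos, a log2 ratio of -0.14. *S100a9*, its partner in calprotectin, had 539 in *Hand2NC* and 605 in WT embryos, a log2 ratio of -0.17. Both ratios were smaller than the local spread, the robust standard deviation of the ratio over the 500 genes nearest in signal, which was 0.18 for *S100a8* and 0.23 for *S100a9*. *Mpo*, the peroxidase of the primary granules, had 235 in *Hand2NC* and 212 in WT embryos, and *Lyz2*, the lysozyme of granulocytes and macrophages, had 470.1 in *Hand2NC* and 496 in WT embryos.

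The macrophage genes were as close at E11.5, with 1 exception in size. *Csf1r*, the receptor for the macrophage growth factors CSF-1 and IL-34, had 1603 in *Hand2NC* and 1674 in WT embryos. *Cx3cr1*, the fractalkine receptor of microglia and monocytes, had 148 in *Hand2NC* and 117 in WT embryos, and its log2 ratio of 0.34 was the only one among the 8 beyond its local spread (0.27). *Tyrobp*, the adaptor DAP12 of myeloid cell receptors, had 540.0 in *Hand2NC* and 489.7 in WT embryos, and *Ptprc*, the leukocyte antigen CD45, had 198 in *Hand2NC* and 200.1 in WT embryos. Over all genes, 16.2% were higher and 17.4% lower by more than the local spread, so 1 gene of 8 is near what the background gives.

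In heads at E12.5, *S100a8* stood apart from the rest of the set. Its signal was 448 in *Hand2NC* heads against 177 in WT heads, 2.54-fold higher in *Hand2NC* (log2 ratio 1.34, local spread 0.16). The only probe set of *S100a8* is of a type that may bind other transcripts as well. Both head signals lay below the E11.5 whole-body signals of the same gene. It ranked 10 among 11815 genes above the filter and 1 among the 11343 genes at or above the median on both arrays, which describes the value it was chosen by.

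**Figure D1:**
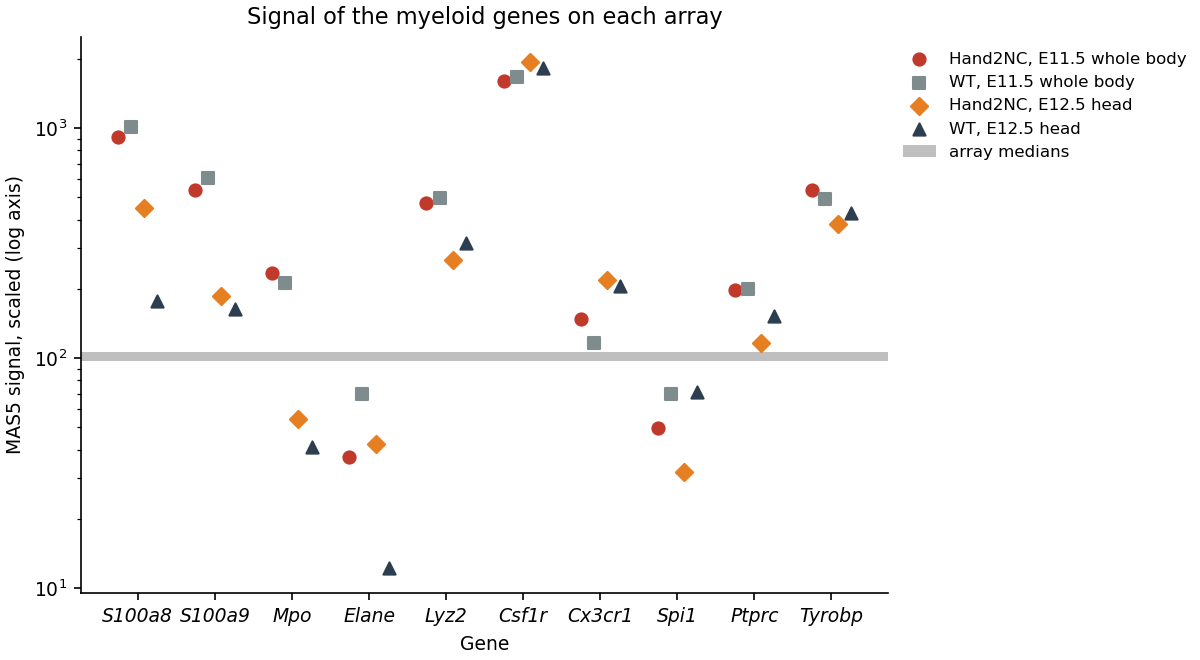
MAS5 signal (log axis, scaled to a trimmed mean of 500) of the 10 genes on each of the 4 arrays, 1 point per array, from the brightest probe set of a gene. The grey band spans the medians of the arrays (97.2 to 106), and in heads the 2 points of S100a8 (448 in Hand2NC and 177 in WT) lie farther apart than those of any other gene above the band.

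*S100a9* did not follow *S100a8* in size. It had 187 in *Hand2NC* heads and 163 in WT heads, a log2 ratio of 0.20 within its local spread of 0.23. The 2 genes are direct neighbours on mouse chromosome 3. *S100a6*, the next measured gene on the other side of *S100a8*, had 498 in *Hand2NC* heads and 435 in WT heads (log2 ratio 0.19). *S100a16* had 908 in *Hand2NC* and 929.8 in WT heads. *Lor*, a gene of the skin barrier further along, had 102 in *Hand2NC* and 151 in WT heads (log2 ratio -0.57, local spread 0.32). *Lor* passed the filter through the WT array alone. Of the S100 family, 14 of 17 genes were measured, 9 passed the filter in heads and *S100a8* was the only one past 2-fold.

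The other granule genes of the set were dim or close between genotypes in heads. *Mpo* had 54.5 in *Hand2NC* heads and 41.0 in WT heads, both below the array medians. *Elane*, the neutrophil elastase, had 42.3 in *Hand2NC* heads and 12.3 in WT heads, and in E11.5 embryos it had 37.2 in *Hand2NC* and 69.9 in WT. All 4 *Elane* signals were below the medians, and at such signals the local spread of the log2 ratio was 0.74 in heads. *Lyz2* had 268 in *Hand2NC* heads and 317 in WT heads (log2 ratio -0.24, local spread 0.20).

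The macrophage and leukocyte genes were level or lower in *Hand2NC* heads. *Csf1r* had 1935 in *Hand2NC* and 1817 in WT heads, a log2 ratio of 0.09 within its spread of 0.12. Its other 2 probe sets had 377 in *Hand2NC* and 362 in WT heads, and 169.6 in *Hand2NC* and 197 in WT heads, with log2 ratios of 0.06 and -0.21. *Cx3cr1* had 218 in *Hand2NC* and 205 in WT heads (log2 ratio 0.09). Its second probe set was below 25 on every array and was not read. *Tyrobp* had 384 in *Hand2NC* and 427 in WT heads (log2 ratio -0.16, local spread 0.20). *Ptprc* had 116 in *Hand2NC* and 153 in WT heads (log2 ratio -0.40, local spread 0.28), and its second probe set was dim on all arrays. *Spi1* had 31.96 in *Hand2NC* and 71.1 in WT heads, and in E11.5 embryos 49.5 in *Hand2NC* and 69.6 in WT, all below the medians, so the array gave no usable level for PU.1 itself.

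In numbers, 7 of the 10 genes passed the filter in heads, 1 of them was at least 2-fold higher (*S100a8*) and 0 were at least 2-fold lower. Over all genes, 0.203% reached a 2-fold higher signal and 0.195% a 2-fold lower one, and nothing is read from the count, since *S100a8* was chosen by this ratio. Past the local spread, 1 gene was higher (*S100a8*) and 2 were lower (*Lyz2* and *Ptprc*), against 17.0% higher and 16.3% lower over all genes. The 6 genes other than *S100a8* that passed had log2 ratios between -0.40 and 0.20 and a median of -0.03, and the median of all genes was 0.0033.

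**Figure D2:**
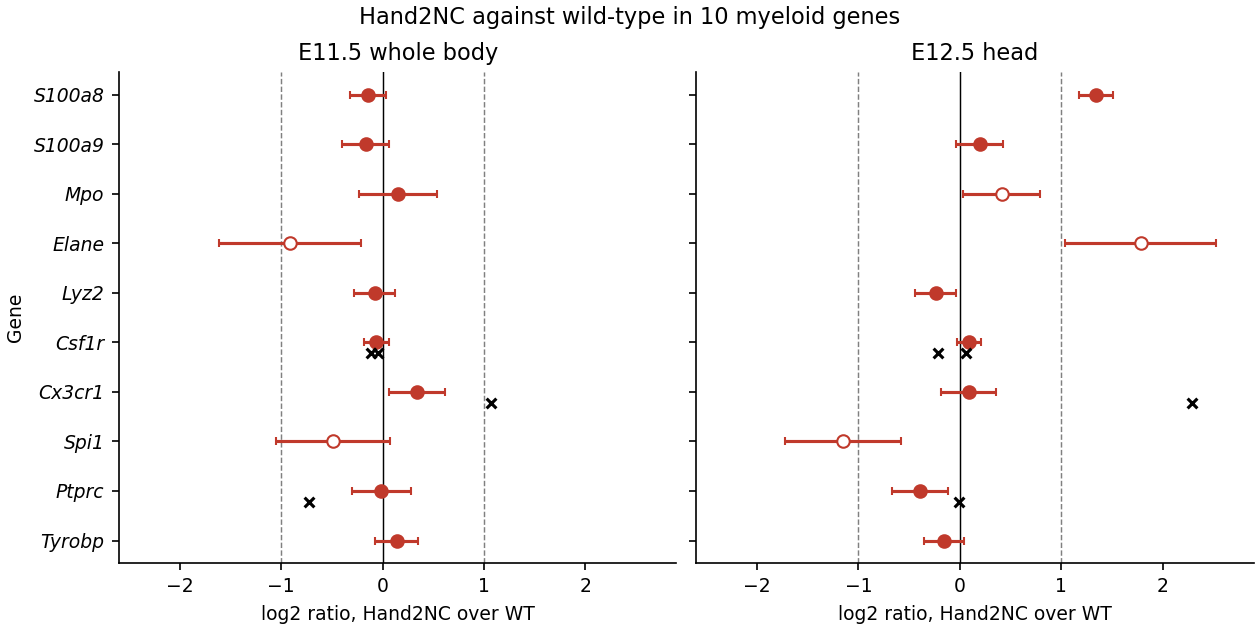
Log2 ratio of Hand2NC over WT for each gene at E11.5 (left, whole body) and E12.5 (right, head), 1 array per group. Circles are the brightest probe set with the local spread as a bar (filled where the gene passed the filter, open where it was too dim), crosses are other probe sets of the gene and dashed lines mark 2-fold. S100a8 lies at -0.14 in the left panel and at 1.34 in the right one, and no other filled circle passes 2-fold.

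The *Hand2NC* head array differed from the WT head array in other respects that move with *S100a8*. Transcripts of the Y chromosome were near background on it, with *Kdm5d* at 8.72 in *Hand2NC* against 677 in WT heads, and *Xist* at 16190 in *Hand2NC* against 8988 in WT heads, whereas at E11.5 *Kdm5d* had 535 in *Hand2NC* and 578 in WT embryos. The head pools thus differed in transcripts of the sex chromosomes, whose part in the *S100a8* ratio was not tested. The ratio of 3' to 5' control signals, which rises with RNA decay, was 0.804 in *Hand2NC* and 0.837 in WT heads for *Gapdh*, and 1.36 in *Hand2NC* and 1.40 in WT heads for *Actb*. *Hand2* itself had 839 in *Hand2NC* and 592 in WT heads on its brightest probe set and 706 in *Hand2NC* and 33.4 in WT heads on another.

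A wider list of neutrophil granule and surface genes was looked at for the same pattern. Of 26 genes, 23 were measured and only 5 passed the filter in heads. After *S100a8*, the largest ratio belonged to *Ngp*, the neutrophilic granule protein, with 154 in *Hand2NC* heads and 77.4 in WT heads (log2 ratio 1.00, just short of 2-fold before rounding, local spread 0.31). At E11.5 *Ngp* had 161 in *Hand2NC* and 204 in WT embryos. *Ngp* passed in heads through the *Hand2NC* array alone, its WT head signal being below the median. The other 3 that passed were *S100a9*, *Prtn3* (proteinase 3), with 186 in *Hand2NC* and 201 in WT heads, and *Mmp9* (gelatinase B), with 124.0 in *Hand2NC* and 168 in WT heads (log2 ratio -0.44, local spread 0.37). The defining genes *Csf3r*, *Itgam*, *Ltf*, *Camp*, *Lcn2* and *Mmp8* lay below the medians in both heads. Without *S100a8*, the summed signal of the list was 1110 in *Hand2NC* and 1129 in WT heads, and 1950 in *Hand2NC* and 2052 in WT embryos at E11.5. These sums cover 22 genes, of which 4 passed the filter in heads and 5 at E11.5, so they include many dim signals.

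Macrophage and microglia genes differed little in sum between genotypes, with single genes of both signs. All 31 genes of that list were measured, 23 passed in heads, and 0 were 2-fold higher or lower. That is near the shares of 0.203% and 0.195% over all genes. By more than the local spread, 3 were higher and 3 lower, against 17.0% and 16.3% over all genes. The log2 ratios of the 23 genes ran from -0.49 for *C1qc* (205 in *Hand2NC* and 288 in WT heads) to 0.57 for *Folr2* (106.5 in *Hand2NC* and 71.7 in WT heads), with a median of 0.07. *Folr2* passed the filter through the *Hand2NC* array alone, its WT signal being below the median. *C1qa*, which encodes another chain of complement C1q, had 427 in *Hand2NC* and 325 in WT heads, opposite in sign to *C1qc*. *Adgre1*, which encodes the macrophage antigen F4/80, had 303 in *Hand2NC* and 289 in WT heads. The summed signal of the list was 8651 in *Hand2NC* and 8478 in WT heads, and 8563 in *Hand2NC* and 8492 in WT embryos at E11.5.

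Among general leukocyte genes, 24 were measured, 14 passed in heads and 0 were past 2-fold, near the shares of 0.203% higher and 0.195% lower over all genes. By more than the local spread, 2 were higher and 2 lower, against 17.0% and 16.3% over all genes. The largest ratio was that of *Inpp5d*, the phosphatase SHIP1 of blood cells, with 143 in *Hand2NC* and 80.4 in WT heads (log2 ratio 0.83, local spread 0.30). *Ikzf1*, the lymphoid and myeloid factor Ikaros, had 115 in *Hand2NC* and 83.4 in WT heads, whereas *Ptpn6* (SHP-1) had 109 in *Hand2NC* and 146 in WT heads. *Inpp5d* and *Ikzf1* both passed the filter through the *Hand2NC* head array alone. The summed signals were 3986 in *Hand2NC* and 4029 in WT heads.

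Of 9 myeloid transcription factors that passed in heads, 1 was higher and 4 lower in *Hand2NC* by more than the local spread. Of 11 myeloid cytokines and receptors that passed, 4 were higher and 0 lower, against 17.0% and 16.3% over all genes. In this second list, *Cxcl12* (log2 ratio 0.12, local spread 0.10) and *Kitl* (log2 ratio 0.13, local spread 0.12) were higher by little more than the spread. *Myb*, a factor of blood progenitors that other tissues also express, had 530.0 in *Hand2NC* and 326 in WT heads, a log2 ratio of 0.70 with a local spread of 0.17, and 669.6 in *Hand2NC* and 668 in WT embryos at E11.5. *Runx1* had 77.3 in *Hand2NC* and 122 in WT heads (log2 ratio -0.66), and at E11.5 it had 146 in *Hand2NC* and 79.4 in WT embryos (log2 ratio 0.88). *Csf1*, the ligand of Csf1r, had 289 in *Hand2NC* and 194 in WT heads (log2 ratio 0.58, local spread 0.25), opposite to its ratio of -0.50 at E11.5. *Csf2rb*, the shared receptor chain for GM-CSF, IL-3 and IL-5, had 117 in *Hand2NC* and 78.6 in WT heads (log2 ratio 0.58, local spread 0.31). *Csf2rb* passed through the *Hand2NC* head array alone, and *Runx1* passed at each stage only through the array on which it was high. *Ager*, which encodes a receptor for S100 proteins, had 105 in *Hand2NC* and 129 in WT heads. None of these passed 2-fold.

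Red cell and skin genes were set beside *S100a8*, since head pools can differ in blood and epithelium. Of 10 erythroid genes that passed in heads, 3 were higher and 5 lower in *Hand2NC* by more than the local spread, against 17.0% and 16.3% over all genes. The higher ones were *Hemgn* (103.5 in *Hand2NC* and 70.7 in WT heads), *Klf1* (144 in *Hand2NC* and 108 in WT heads) and *Hbb-bh1*. The lower ones were *Hba-x*, *Hbb-y*, *Alas2*, *Tal1* and *Nfe2*. *Hemgn* and *Nfe2* passed only through the array on which each was high. The summed signal of the list was 57420 in *Hand2NC* and 60830 in WT heads, with *Hbb-y* alone at 28060 in *Hand2NC* and 30500 in WT heads. *Alas2*, which encodes the heme synthesis enzyme of red cells, had 293 in *Hand2NC* and 466 in WT heads (log2 ratio -0.67, local spread 0.17) and was the only gene of that list called between genotypes over both stages (limma adjusted p = 0.00797, and 0.894 without the trend). Of 6 platelet genes that passed, 0 were higher and 2 lower by more than the local spread. *Ppbp*, 1 of these 2, had 140 in *Hand2NC* and 209 in WT heads, while *Pf4* had 742 in *Hand2NC* and 775 in WT heads. Of 12 surface epithelium genes that passed, 2 were higher (*Krt8* and *Dsp*) and 3 lower (*Krt5*, *Krt14* and *Krt17*) by more than the local spread, and the summed signal of the list was 9206 in *Hand2NC* and 9450 in WT heads. Keratinocytes too can express *S100a8*, and the part of blood or skin in its ratio was not tested.

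With *S100a8* left out, no tested gene of the set was called between genotypes over both stages together. A linear model (limma) with stage and genotype as terms was fitted to 12248 genes, and of the 7 tested genes other than *S100a8*, 0 were called at an adjusted p of 0.05 and 0 had an unadjusted p below 0.05. Over all genes, this fit called 0.253% higher and 0.22% lower in *Hand2NC* (58 genes), and 0 genes were called when the variance was not fitted to signal, with 590 at an unadjusted p below 0.05. The fit has 1 residual degree of freedom, which holds any difference in the genotype effect between the stages. *S100a8*, chosen on part of these values, is left out of this count.

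The larger differences in the set lay between E12.5 heads and E11.5 whole bodies, and their direction was not the same for all genes. The calgranulins and *Mpo* were 3.27- to 4.73-fold lower in heads, *Lyz2* was 1.66-fold lower, *Csf1r* showed no call and *Cx3cr1* was 1.61-fold higher. The 4.73-fold value is that of *Mpo* and rests on head signals below the array medians. Age and tissue cannot be told apart in this comparison, since every E11.5 array is whole-body and every E12.5 array is head. That rests on the sample labels, since a figure legend of the study names heads at E11.5 as well. Most liver genes were far lower on the head arrays, with *Afp* at 158 in *Hand2NC* and 133 in WT heads against 18320 in *Hand2NC* and 17150 in WT whole bodies. Of 10 hepatoblast genes tested with the 2 limma fits described next, 9 were lower and 1 (*Ttr*) higher in heads under both. Over all genes, the shares were 5.32% lower and 10.1% higher. Only 2 genes of the list, *Afp* and *Ttr*, passed the filter in heads.

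The comparison was tested with limma on the 4 arrays with genotype as a term and Benjamini-Hochberg adjustment over the 12248 genes. With the variance fitted to signal, the prior had 4136 degrees of freedom, so a gene's own spread had almost no weight and the p-values are very small. Each adjusted p is therefore followed by that of a fit with no such trend (prior 3.52 degrees of freedom). Of the 8 genes tested, 1 was called higher and 6 lower in heads with the trend, and 1 higher and 4 lower without it. Both counts of lower genes include *S100a8*, which was chosen on part of these values. They also include *Mpo*, which passed the filter through the E11.5 arrays alone, where it was high. Over all genes, 21.3% were called higher and 16.7% lower with the trend, and 10.9% higher and 5.93% lower without it.

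*S100a9* had 187 in *Hand2NC* and 163 in WT heads, against 539 in *Hand2NC* and 605 in WT whole bodies. Its log2 difference was -1.71 (SE 0.16, limma adjusted p = 7.54e-25, and 0.00871 without the trend), with -1.53 in *Hand2NC* and -1.89 in WT. *Mpo* was lower in both genotypes by a like amount, -2.11 in *Hand2NC* and -2.37 in WT, with a mean log2 difference of -2.24 (SE 0.32, limma adjusted p = 1.24e-10, and 0.00458 without the trend). Since its head signals were below the medians, the size of that difference rests on dim values, and with dim values raised to the median it was -1.21 in *Hand2NC* and -1.004 in WT.

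*S100a8* was also lower in heads, but unequally. The log2 difference was -1.03 in *Hand2NC* and -2.51 in WT, so the mean of -1.77 (SE 0.13, limma adjusted p = 2.48e-39, and 0.042 without the trend) stands for no single pair of arrays. That mean includes the *Hand2NC* head value *S100a8* was chosen by, so its p-values are not free of that choice. Leaving out either *Hand2NC* array gives -2.51, and leaving out either WT array gives -1.03. The gap between these values equals the E12.5 genotype ratio minus the E11.5 one and was not tested. *Lyz2*, shared by granulocytes and macrophages, was lower by a smaller amount, at -0.81 in *Hand2NC* and -0.65 in WT (mean -0.73, SE 0.15, limma adjusted p = 6.50e-06, and 0.0225 without the trend).

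**Figure D3:**
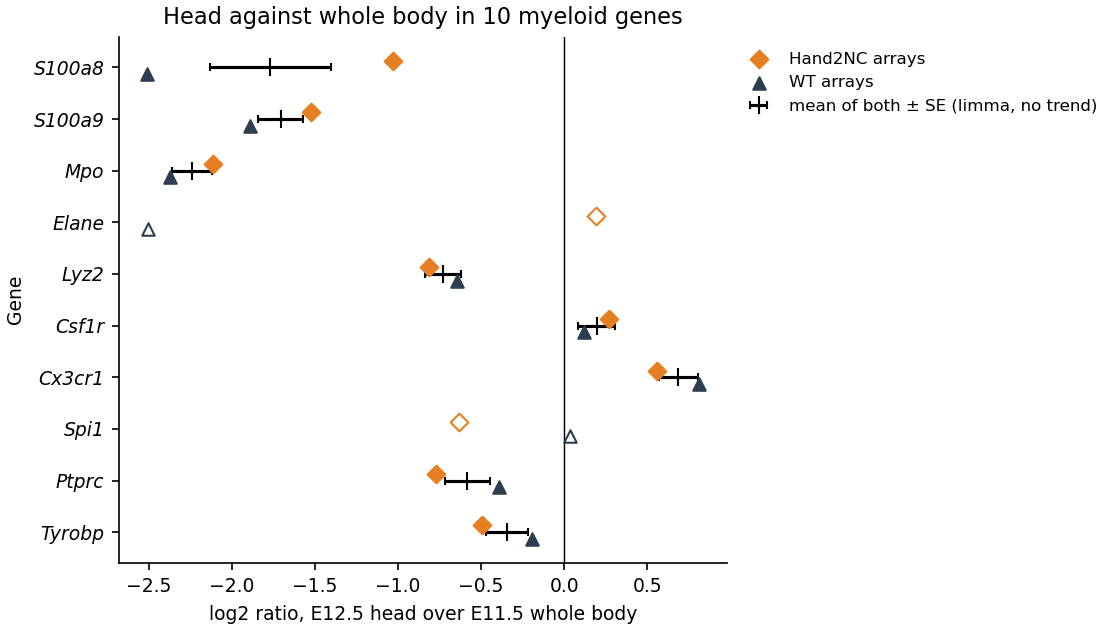
Log2 ratio of E12.5 head over E11.5 whole body for each gene, in Hand2NC (diamonds) and WT (triangles) arrays, open where the gene was too dim. The bar is the limma mean over both with its standard error from the fit with no trend, and S100a8 shows the widest gap between genotypes among the filled points (-1.03 in Hand2NC and -2.51 in WT).

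*Csf1r* and *Cx3cr1* were not lower in heads, whereas *Lyz2*, also on the list of macrophage genes, was lower (mean log2 difference -0.73). *Cx3cr1* was higher in heads in both genotypes, by 0.56 in *Hand2NC* and 0.81 in WT on the log2 scale (mean 0.69, SE 0.23, limma adjusted p = 0.0102, and 0.0294 without the trend). *Csf1r* differed by 0.27 in *Hand2NC* and 0.12 in WT, with a mean of 0.19 that was not called (SE 0.10, limma adjusted p = 0.102, and 0.263 without the trend). The 2 leukocyte genes were lower under one fit only. *Ptprc* had a mean log2 difference of -0.58 (limma adjusted p = 0.0355, and 0.0552 without the trend) and *Tyrobp* one of -0.34 (limma adjusted p = 0.0312, and 0.126 without the trend).

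In the wider lists, calls were counted where both fits gave them, as they did for 10.1% of all genes higher and 5.32% lower in heads. Of 7 neutrophil genes tested, 4 were lower in heads under both fits and 0 higher, with a median log2 difference of -1.50. The 4 were *S100a8*, *S100a9*, *Mpo* and *Camp*, the cathelicidin of the secondary granules, which differed by -1.50 (limma adjusted p = 2.35e-05, and 0.00825 without the trend). *Mpo* and *Camp* lay below the medians in both heads and passed the filter through the E11.5 arrays alone. *S100a8* was chosen on part of these values. Of 23 macrophage genes tested, 1 was higher (*Cx3cr1*) and 3 were lower under both fits (*Tmem119*, *Lyz2* and *Cd83*), with a median of 0.10, against a median of 0.03 over all genes. *Tmem119*, a marker of adult microglia that bone and other mesenchymal cells also express, had 452 in *Hand2NC* and 408 in WT heads, against 692 in *Hand2NC* and 706 in WT whole bodies.

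Most genes of the red cell and platelet lineages were lower in heads too. Of 14 erythroid genes tested, 13 were lower in heads under both fits, with a median log2 difference of -1.70, from *Hemgn*, a nuclear protein of blood precursors (-4.62, limma adjusted p without the trend 0.00275), to the globin *Hba-x* (-0.50). *Hbb-y*, the embryonic beta globin, was the exception (-0.05). *Epor*, *Gata1*, *Epb42* and *Rhag*, all counted as lower, were below the medians in both heads and passed the filter through the E11.5 arrays alone. Of 10 megakaryocyte and platelet genes tested, 7 were lower under both fits and 0 were higher, with *Pf4* at -2.04 and *Ppbp*, another platelet chemokine, at -3.07. Among the 7, *Gp5*, *Gp9* and *Itgb3* likewise passed the filter through the E11.5 arrays alone. Among general leukocyte genes, *Plek* (pleckstrin, also of platelets) and *Ikzf1* were lower under both fits, with mean log2 differences of -1.80 and -1.82.

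**Figure D4:**
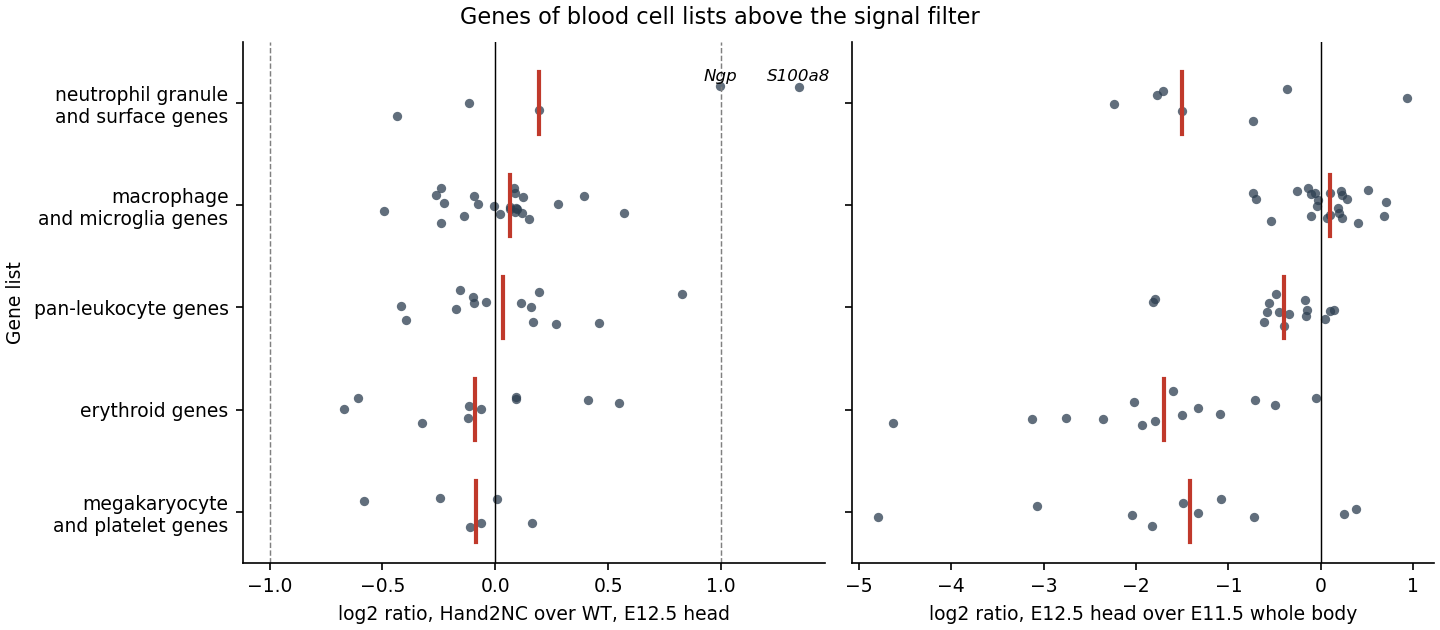
Log2 ratios of single genes in 5 lists of blood cell genes, 1 dot per gene above the filter, with the median of each list as a red bar. On the left, Hand2NC over WT heads, the list medians lie between -0.09 and 0.20 and S100a8 and Ngp stand at the right edge. The 0.20 is the median of the neutrophil list, which is 0.04 without S100a8, the gene chosen by this ratio. On the right, E12.5 head over E11.5 whole body, the medians lie at 0.10 for macrophage and microglia genes and at -1.50, -1.70 and -1.41 for neutrophil, erythroid and megakaryocyte genes.

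The genes whose profile over the 4 arrays was most like that of *S100a8* were not granulocyte genes of the lists. Likeness was measured as the root-mean-square distance between log2 profiles centred on their mean, over 4 arrays only, and is a description that includes the values *S100a8* was chosen by. The nearest were *Cited4* (distance 0.08), *Tac2* (0.17), *Pgam2* (0.22), *Gfi1b* (0.23) and *Ism1* (0.23), all at least 2-fold higher in *Hand2NC* than in WT heads and low in heads relative to whole bodies. Apart from *Pgam2*, which had 178.5 in *Hand2NC* and 61.5 in WT heads, all of these were below the medians in both heads. *Gfi1b*, a repressor of red cell and megakaryocyte precursors, had 63.2 in *Hand2NC* and 30.0 in WT heads. *S100a9* came at rank 35 and *Mpo* at rank 37 of the genes tested, *Lyz2* at rank 637, *Ptprc* at 1630 and *Tyrobp* at 2388, whereas *Csf1r* came at rank 7606 and *Cx3cr1* at 11099.

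*Csf1r*, taken as a macrophage gene of the set, had a nearly flat profile. Its nearest genes were *Fst*, *Txn2*, *Papss1*, *Carm1* and *Ppp2cb*, at distances of 0.0055 to 0.01, none of them on a blood cell list used here. From *Csf1r*, *Cx3cr1* lay at rank 9368, *Tyrobp* at 9539 and *S100a8* at 12080 of the genes tested.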

How the data were processed

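Per the labels, total RNA was labelled and hybridised to 4 Affymetrix Mouse Genome 430 2.0 arrays (1 colour, 1 per group). The deposited values are linear intensity values made by the authors with MAS5 (version not given in the sources used here), with no detection calls. Control features (64 of 45101) were left out, signals were brought to a 2% trimmed mean of 500 per array and log2-transformed. The platform annotation named the probe sets (34945 with 1 symbol, 932 with several, 9160 with none), of which 34741 matched RefSeq (GRCm38.p6). A gene took its brightest probe set by mean log2 signal and was kept if its brighter array reached the median. Genotypes were compared at each stage by log2 ratio at a 2-fold cutoff, with no test. Heads and bodies were compared with limma 3.58.1 (R 4.3.3). The fit with the trend was also run on simulated data whose noise depended on signal alone. Since that is what the fit assumes, the run cannot show whether its p-values hold for these arrays. Python 3.11.15, numpy 2.4.6 and pandas 2.3.3 did the rest. The genes and lists were chosen with earlier results of these data known. The rule for names took all 10 genes, the genes of a list past 2-fold or otherwise up to 3 with the largest ratios or head differences, and the 5 profiles nearest to *S100a8* and *Csf1r*. Other genes named were chosen after their values were seen. Alternatives covered scaling, filters, dim values, the probe set of a gene and the limma variance trend. Proteins were not analysed here.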

Additional observations from a re-analysis of the deposited data

Results flagged for a closer look

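*S100a8* had log2 ratios of 1.34 (1.3438) in E12.5 *Hand2NC* over WT heads and -0.14 in E11.5 *Hand2NC* over WT whole bodies, with 1 array per group. The E12.5 ratio is the value it was chosen by, and the E11.5 ratio lay within its local spread of 0.18. The difference between the stages was not tested. *Zap70*, a kinase of T cells and NK cells from the lymphoid list, had a log2 ratio of -0.06 (-0.0606) in E12.5 heads and 1.499 in E11.5 whole bodies, where its signal was 479 in *Hand2NC* and 169.3 in WT embryos. That difference was not tested either.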

How the results depend on the processing

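No paired analysis was possible because the labels give no replicate numbers and each group has 1 array. With no filter on dim signals, 2 genes were at least 2-fold higher in *Hand2NC* heads at E12.5 (*Elane* joined *S100a8*) and 1 was 2-fold lower (*Spi1*), all but *S100a8* below the array medians. With a filter at the 75th percentile of the brighter array, 0 genes were counted as 2-fold higher, since *S100a8* itself is then left out, and of 5 genes tested between head and body, 0 were called higher and 3 lower. With the mean over all probe sets of a gene, 0 were called higher in heads, since *Cx3cr1* then averages in a dim probe set. With dim signals raised to the median, the ratio of *Elane* reversed to -0.0572 in E12.5 *Hand2NC* over WT heads and to 0.123 for head over body in WT. In the other cases, 119 of the counts, medians and *S100a8* ratios and 439 of the single-gene values moved within 1.5-fold or the local spread, and 20 single-gene values moved further, among them *Cx3cr1*, at -0.27 for head over body in WT with the mean over its probe sets. Leaving out 1 array, *S100a8* lay between -2.51 and -1.03 for head over body, with no test possible. The probe set of *S100a8* may also bind other transcripts, and the gene has no second one. The 4 arrays cannot part spread between embryos from measurement error.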
